A study of Mus musculus with 48 samples.

Results

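Havcr2 encodes Tim-3, a surface protein on which, together with Slamf6, the CD8+ T cells of this study were sorted. The gene lies on mouse chromosome 11 from 46454931 to 46481255 (GRCm38, 26325 bp, plus strand). A peak of accessible chromatin was given to Havcr2 when it overlapped the gene body, or when Havcr2 was the nearest protein-coding gene body within 100 kb. By this rule, 5 of the 53868 peaks in the deposited table belonged to Havcr2, 4 of them overlapping the gene. All 5 were measured in all 21 groups, and no filter on weak peaks was applied.

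The study profiled chromatin accessibility by ATAC-seq, in which the Tn5 transposase cuts and tags open DNA. The cells were CD45.1 OT-1 CD8+ T cells expressing Cas9, whose receptor recognises an ovalbumin peptide, recovered from B16-OVA melanomas 15 days after tumour inoculation. Before transfer into young or aged mice they received a lentiviral guide RNA against Zfp219 or Dusp5, or the control named OTC, so that Cas9, the OT-1 receptor and a guide vector with its ametrine reporter were shared by every group, controls included. The labels do not state the host ages in months, the promoter driving Cas9 or the guide sequences. The sort was on Slamf6 and Tim-3. Tprog (progenitor exhausted) was Slamf6+ Tim-3-, Ttran (transitory, effector-like) was positive for both, Tterm (terminally exhausted) was Slamf6- Tim-3+, and Ttad (age-associated dysfunctional) was negative for both. Aged hosts contributed 12 groups (3 guides in 4 states) and young hosts 9 groups (3 guides in Tprog, Ttran and Tterm). Of the 21 groups, 15 had 2 libraries and 6, the young Ttran and Tterm groups, had 3. Each library held cells pooled from independent mice, at 5000 to 50000 cells per combination of guide and state. Which mice entered which pool was not recorded in the labels. The limma p-values below rest on the spread between the 2 or 3 pools of a group, estimated jointly over all 21 groups. Fits with the compared groups alone used only their own libraries.

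Tim-3 is a membrane glycoprotein of the T cell immunoglobulin and mucin (Tim) family. It is found on interferon-producing T cells and, together with PD-1, on chronically stimulated CD8+ T cells in tumours, where it marks the later stages of exhaustion. Its known binding partners include galectin-9 (Lgals9), Ceacam1 and Hmgb1. Its cytoplasmic tail carries tyrosines that bind Bag6 (Bat3) and Src-family kinases such as Lck and Fyn. Because the sort used the Tim-3 protein, a difference at its gene between Tim-3+ and Tim-3- cells describes the sorted populations. The comparisons within a Tim-3 gate (Ttad with Tprog, and Tterm with Ttran), between host ages and between guides set cells of like Tim-3 gates side by side. Whether Tim-3 levels differed within a gate was not tested.

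The 250 bases before the gene start, chr11:46454681-46454930 on the plus strand (RefSeq, GRCm38.p6), are printed here because they lie inside the promoter peak, on which most of the results turn. Capitals mark matches to the motifs searched.

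Havcr2 promoter: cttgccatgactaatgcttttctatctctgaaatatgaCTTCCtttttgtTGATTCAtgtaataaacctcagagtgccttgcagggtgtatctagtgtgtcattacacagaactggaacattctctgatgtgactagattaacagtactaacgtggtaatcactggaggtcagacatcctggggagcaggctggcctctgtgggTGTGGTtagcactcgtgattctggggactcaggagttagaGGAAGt

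Positions are counted back from -1, the base just before the gene start, and both strands were searched for 7 motifs. AP-1 (TGANTCA) matched 1 time, starting at -200, and 6.75% of 32851 promoter windows of the same length held at least 1 match. Runx (TGTGGT) matched 1 time at -46, a motif held by 14.05% of promoters. ETS (GGAAG) matched 2 times, at -212 on the minus strand and at -6 on the plus strand, a motif held by 64.1% of promoters. NFAT (GGAAA), E-box (CANNTG), Tcf (CTTTGA) and T-box (AGGTGT) letters were not found in this window and were held by 55.6%, 66.2%, 13.8% and 11.8% of promoters. A match describes the letters and is not a measured binding site.

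The promoter peak (46452770 to 46455391, 2621 bp) spanned the gene start and had a mean of 1038 normalized reads over the 48 libraries, above 96.1% of all peaks. A normalized read is a read count divided by the authors' scaling factor of that library. The first intragenic peak (46461367 to 46462505, 1138 bp) averaged 620 normalized reads, the second (46466292 to 46468018, 1726 bp) 818 and the third (46473605 to 46475108, 1503 bp) 499. Per kb of width, the first intragenic peak was the strongest at 545 normalized reads, followed by the second at 474, the promoter peak at 396 and the third at 332. The downstream peak (46488013 to 46488695, 682 bp) began 6758 bp beyond the gene, averaged 38.5 normalized reads (56.5 per kb) and stood above only 27.9% of all peaks. It rested on 9 to 102 reads per library, against 406 to 2770 for the promoter peak and 216 to 2177 for the intragenic peaks. On either side, the nearest peaks outside the set were 6122 bp before the gene (46446179 to 46448809, nearest to Med7) and 25551 bp after it (46506806 to 46507626, nearest to Gm12169). Exon and intron positions were not used here.

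Reads in peaks ranged from 5638413 to 16159054 in the 24 aged libraries and from 6589023 to 29942755 in the 24 young ones. All 8 T cell marker genes (Cd3e, Cd3g, Cd3d, Cd8a, Cd8b1, Cd2, Cd5 and Lck) had peaks. With the guides pooled, their summed level overlapped between the sorted states of an age. Within OTC cells it did not overlap between Tprog and Tterm. Aged OTC Tprog held 10675 to 11073 and Tterm 11273 to 11344.5, and young OTC Tprog held 12708 to 12831 and Tterm 12070 to 12561. Young Tprog also lay above Tterm with Zfp219 and with Dusp5. Aged Tprog lay below Tterm with Zfp219 and overlapped it with Dusp5. No peak overlapped Ms4a1, Cd79a or Cd79b (B cells), Lyz2, Csf1r or Adgre1 (myeloid cells), Ncr1 (NK cells) or Dct, Tyr, Tyrp1 or Sox10 (melanoma). Klrb1c, an NK cell receptor, had 1 peak, at 0 to 33.1 normalized reads over the 48 libraries. Mlana had 1 melanoma-marker peak and Pmel 4, the strongest of which was given to the neighbouring gene Rab5b, and their sum was 2309 to 2707 in aged Tprog and 2186 to 2603 in aged Tterm, but 2686 to 3192 in young Tprog and 2293 to 2614 in young Tterm, without overlap. Pax5, a B cell transcription factor with peaks, summed to 428 to 608 normalized reads in aged Tprog and 285 to 370 in aged Tterm, and to 516 to 672 and 280 to 396 in young hosts. The Cd4 peak held 142 to 297 in aged Tprog and 315 to 477 in aged Tterm, and 240 to 438 and 345 to 517 in young hosts. The 4 of 7 myeloid markers with peaks summed to 1230 to 1452 in aged Tprog and 1277 to 1514 in aged Tterm. These pooled ranges overlapped, but within each guide aged Tprog lay below aged Tterm, at 1256 to 1334 against 1444 to 1465 with OTC. In young hosts the myeloid sums of Tprog and Tterm overlapped within each guide. Whether other cells contributed to the Havcr2 differences was not tested. In bulk samples, fewer cells with an open site and less accessibility per cell cannot be told apart.

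The first comparison was between the sorted states of control cells. At the promoter peak the 2 aged OTC Tprog libraries held 523 and 585 normalized reads, the 2 Ttad libraries 825 and 934, the 2 Ttran libraries 1256 and 1304, and the 2 Tterm libraries 1212 and 1351. Tprog was lowest, Ttad intermediate, and Ttran and Tterm overlapped at the top. The promoter peak was 2.31-fold higher in aged OTC Tterm than in Tprog (log2 difference 1.21, SE 0.08, limma adjusted p = 4.68e-22) and equally 2.31-fold higher in Ttran than in Tprog (1.21, SE 0.08, adjusted p = 7.40e-22). In young OTC hosts Tprog held 656 and 688, Ttran 1196, 1223 and 1279, and Tterm 1303, 1304 and 1339. All 6 young Tim-3+ libraries lay above both Tprog libraries, by 1.96-fold for Tterm (log2 difference 0.97, SE 0.08, adjusted p = 2.36e-19) and 1.83-fold for Ttran (0.87, SE 0.08, adjusted p = 2.85e-16). The share of all peaks that separated these libraries was not counted.

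The other guides were measured in separate libraries. The promoter peak was higher in Tterm than in Tprog 2.14-fold in aged and 1.78-fold in young hosts with Zfp219, and 2.18-fold and 1.87-fold with Dusp5 (largest limma adjusted p = 7.87e-16). In each of these 4 comparisons 4 of 5 Havcr2 peaks were called, where 18.8% and 26.8% of all peaks were called with Zfp219 and 22.9% and 29.8% with Dusp5, in aged and young hosts. With aged Zfp219 the second and the third intragenic calls were both lost without Tterm replicate 1 (adjusted p = 0.108 for each) and without Tprog replicate 1 (0.0562 and 0.0780), so that 2 of 5 were left. With young Dusp5 the second intragenic call was lost without Tprog replicate 1 (adjusted p = 0.261).

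**Figure D1:**
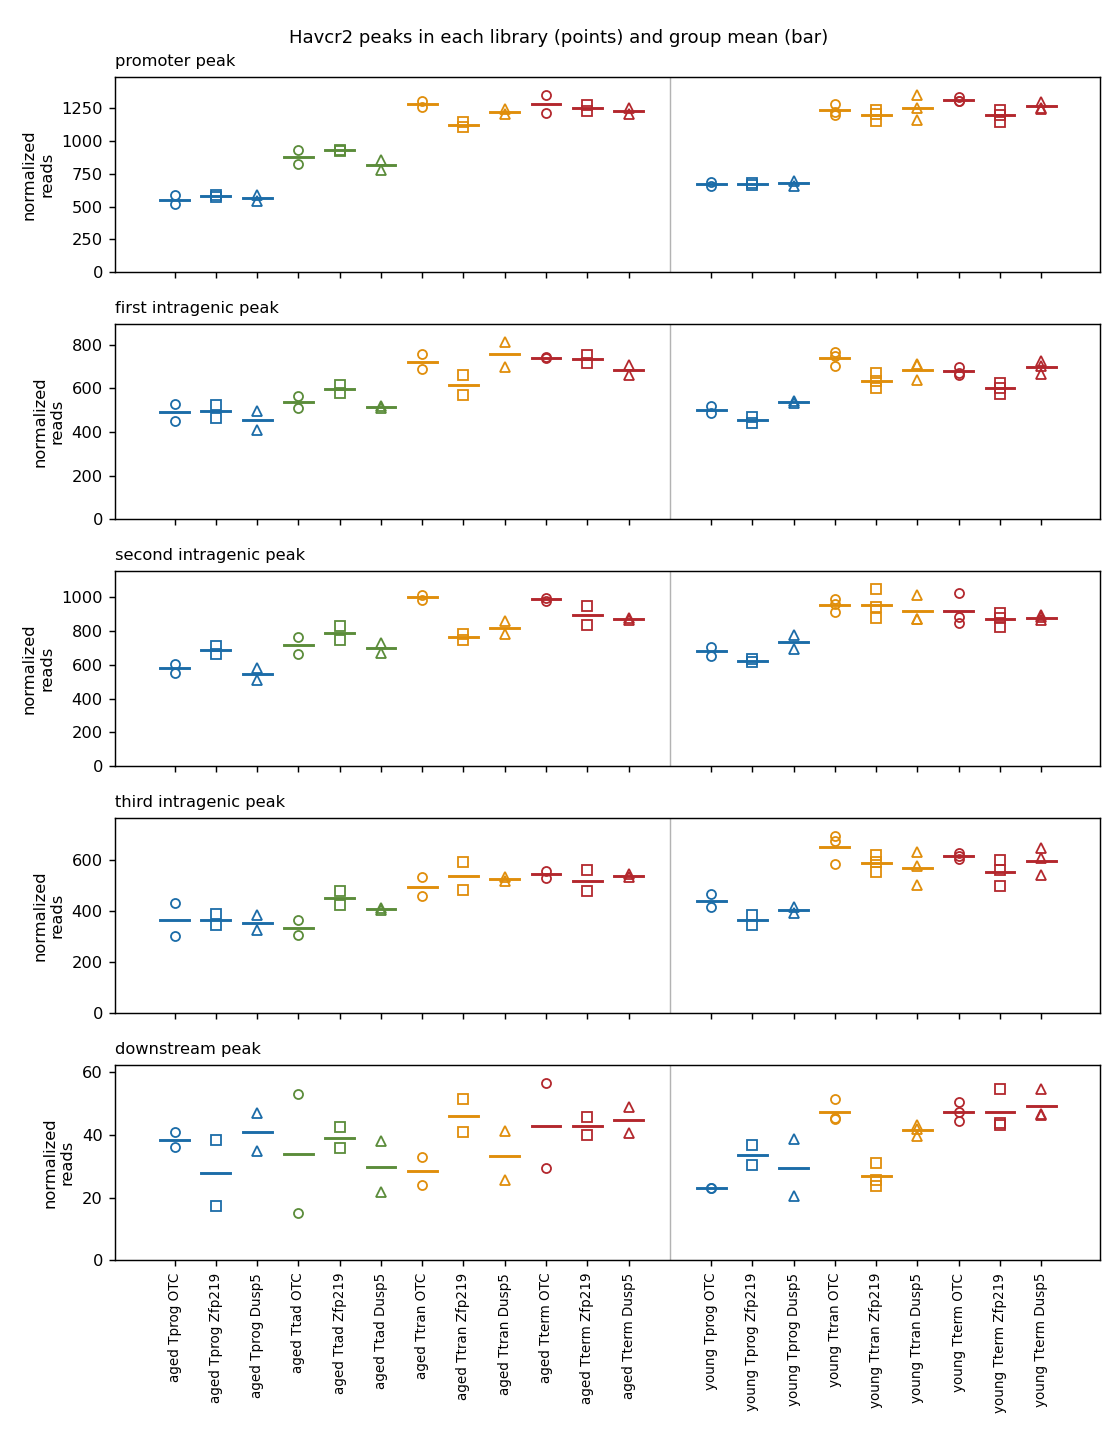
Normalized reads (vertical axes, starting at 0) of each Havcr2 peak in each of the 48 libraries (points; circles OTC, squares Zfp219, triangles Dusp5) with the group mean as a bar, aged hosts left and young hosts right of the line. At the promoter peak the aged Ttad libraries, at 778 to 934, stand between the Tprog libraries, at 523 to 591, and the Ttran and Tterm libraries, at 1104 to 1351.

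Of the 5 Havcr2 peaks, 4 were called higher in aged OTC Tterm than in Tprog at an adjusted p under 0.05, where 20.1% of all peaks were called in either direction. In young OTC cells 5 of 5 were called, against 26.5% of all peaks. Between Ttran and Tprog 4 of 5 were called at each age, where 17% of all peaks were called in aged and 16.9% in young hosts. The median log2 difference of the 5 peaks between Tterm and Tprog was 0.60 in aged and 0.48 in young OTC cells, beside -0.01 over all peaks at each age.

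The intragenic peaks differed between the same states by less than the promoter peak did. The first intragenic peak held 451 and 529 normalized reads in aged OTC Tprog and 741 in both Tterm libraries, a log2 difference of 0.60 (SE 0.11, limma adjusted p = 5.11e-06). The second held 554 and 607 against 975 and 997 (0.77, SE 0.10, adjusted p = 6.95e-10). The third held 300 and 429 against 530 and 557 (0.60, SE 0.13, adjusted p = 1.83e-04). None of these pairs of groups overlapped, but the share of all peaks that separated these 2 and 2 libraries was not counted. The third peak's call rested on the Tprog library at 300: without it the difference was 0.34 (adjusted p = 0.135). The call of Ttran against Tprog at that peak (0.46, adjusted p = 0.00666) was lost without the same library (0.20, adjusted p = 0.473) and without Ttran replicate 2 (0.35, adjusted p = 0.144).

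In young OTC cells the first intragenic peak rose from 485 and 518 in Tprog to 662, 671 and 699 in Tterm (log2 difference 0.43, SE 0.10, adjusted p = 2.55e-04). The second rose from 653 and 704 to 849, 881 and 1021 (0.43, SE 0.09, adjusted p = 7.31e-05). The third rose from 413 and 466 to 600, 615 and 626 (0.48, SE 0.12, adjusted p = 7.89e-04). Each of these peaks separated the 2 Tprog libraries from the 3 Tterm libraries, and the share of all peaks that did so was not counted. Without Tprog replicate 2 the third peak's difference was 0.40 and its call was lost (adjusted p = 0.0512).

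The weak downstream peak did not follow the others in aged cells. It held 36.2 and 40.8 normalized reads in aged OTC Tprog, 29.3 and 56.7 in Tterm and 23.9 and 33.1 in Ttran, with wide overlap between states (Tterm against Tprog, log2 difference 0.08, SE 0.44, adjusted p = 0.928). In young OTC cells it held 22.9 and 23.1 in Tprog against 44.4, 47.2 and 50.6 in Tterm (1.01, SE 0.40, adjusted p = 0.0490). That call was lost in each fit that left out 1 of these 5 libraries, with adjusted p from 0.0753 to 0.168. Over the 3 guides of young hosts, the 9 Tterm libraries (43.2 to 54.6, median 46.7) did not overlap the 6 Tprog libraries (20.4 to 38.7, median 26.8), a log2 difference of 0.76 (SE 0.23, adjusted p = 0.00405). In that fit 5 of 5 Havcr2 peaks and 49.3% of all peaks were called. The 9 Tterm libraries lay wholly above the 6 Tprog libraries at 5 of 5 Havcr2 peaks and at 8.99% of all peaks.

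**Figure D2:**
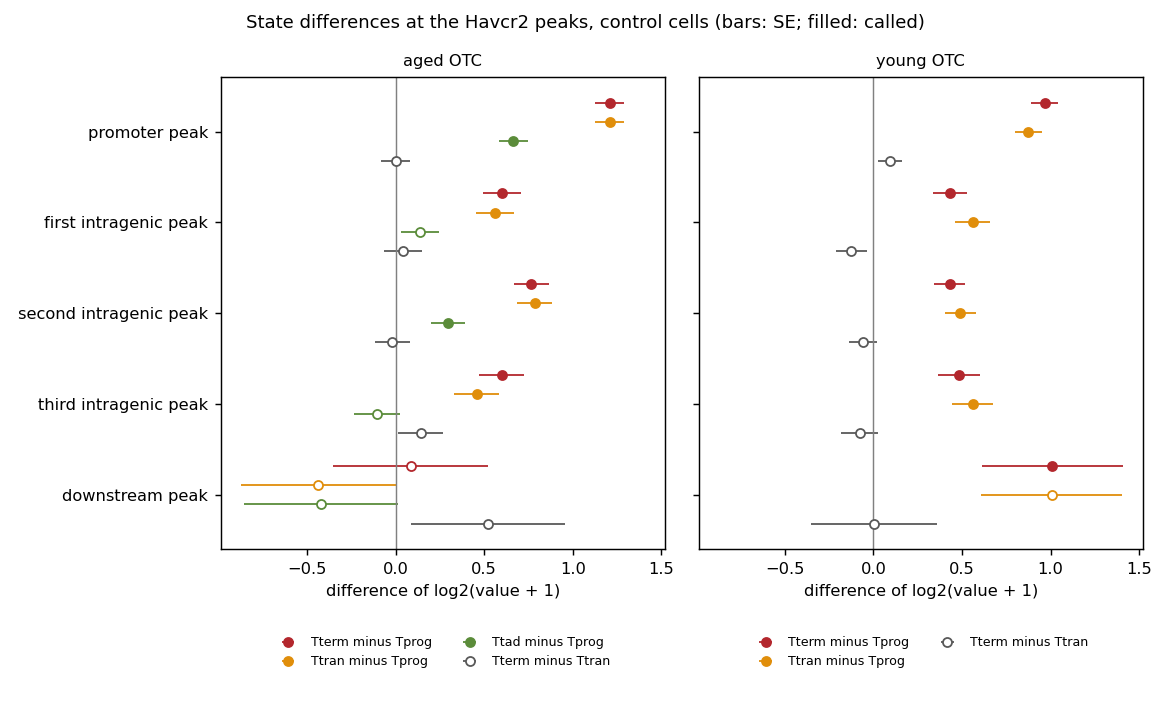
Log2 differences (horizontal axis, on the log2(value + 1) scale) between sorted states at the 5 peaks in aged OTC (left) and young OTC cells (right), with bars of 1 standard error and filled points where the limma adjusted p was under 0.05. The promoter peak differs from Tprog by 1.21 in aged and by 0.97 and 0.87 in young Tim-3+ cells, while Tterm minus Ttran has no filled point and lies between -0.13 and 0.14 except at the aged downstream peak, at 0.52.

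Ttad and Tprog were both sorted as Tim-3-, although their Tim-3 levels within that gate were not compared. The promoter peak was nevertheless 1.58-fold higher in aged OTC Ttad than in Tprog (log2 difference 0.66, SE 0.08, limma adjusted p = 1.16e-08; 6.55% of all peaks were called). Its difference ranged from 0.57 to 0.75 over 11 alternative analyses, with adjusted p from 4.16e-09 to 1.93e-04. The second intragenic peak was the other of 2 called, at 554 and 607 in Tprog against 664 and 764 in Ttad (0.30, SE 0.10, adjusted p = 0.0474). That call was lost with edgeR (adjusted p = 0.0553), with quantile normalization (0.199), with the 2 groups fitted alone (0.123), with library weights (0.0709) and without either Tprog library (0.0833 and 0.339) or the higher Ttad library (0.399). The first intragenic peak held 511 and 565 in Ttad against 451 and 529 in Tprog, and the third 307 and 362 against 300 and 429, with overlapping libraries at each (log2 differences 0.14 and -0.11, adjusted p = 0.524 and 0.732).

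The same comparison was repeated with the other guides, which use separate libraries. With Zfp219 the promoter peak held 577 and 591 in Tprog and 928 and 929 in Ttad (log2 difference 0.67, SE 0.08, adjusted p = 5.44e-09, 1 of 5 peaks called against 7.65% of all peaks). With Dusp5 it held 540 and 589 in Tprog and 778 and 854 in Ttad (0.53, SE 0.08, adjusted p = 2.75e-06, 2 of 5 called against 7.33%). The other Dusp5 call, the second intragenic peak at 0.36 (SE 0.10, adjusted p = 0.0103), was lost with the groups fitted alone (adjusted p = 0.0775) and without Tprog replicate 2 (0.218) or Ttad replicate 2 (0.144). On the log2 scale Ttad stood 55.0% of the way from Tprog to Tterm with OTC, 60.8% with Zfp219 and 47.3% with Dusp5. Over the 3 guides the 6 Ttad libraries (778 to 934, median 891) lay wholly above the 6 Tprog libraries (523 to 591, median 581). This separation was seen at 1 of 5 Havcr2 peaks and at 2.02% of all peaks. The fit over the 3 guides called 3 of 5 (18.1% of all peaks): the promoter peak at 0.62 (SE 0.05, adjusted p = 4.29e-19), the second intragenic at 0.29 (SE 0.06, adjusted p = 4.99e-05) and the first at 0.20 (SE 0.06, adjusted p = 0.0130). With each guide counted as 1 replicate, the first intragenic call was lost (adjusted p = 0.179), as it was under quantile normalization (0.0620).

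Ttad also stayed below the Tim-3+ states. In aged OTC cells 4 of 5 peaks were lower in Ttad than in Tterm, where 7.28% of all peaks were called, and the same number were lower than in Ttran, where 7.74% were called. Against Tterm, the first intragenic call was lost without Ttad replicate 2 (adjusted p = 0.0574) and the second without Ttad replicate 1 (0.0565). The promoter peak was lower by a log2 difference of -0.54 in each comparison (SE 0.08, adjusted p = 1.34e-06 and 1.94e-06). The largest difference from Tterm was at the third intragenic peak, -0.70 (SE 0.13, adjusted p = 5.44e-05). Without Ttad replicate 2, calls against Ttran dropped to 2 of 5, as they did without Ttran replicate 2, and the first intragenic call was lost with the groups fitted alone (adjusted p = 0.0552). With Zfp219, 1 of 5 peaks was lower in Ttad than in Tterm (1.75% of all peaks), the promoter peak at -0.43 (SE 0.08, adjusted p = 6.80e-04). With Dusp5, 4 of 5 were lower (7.34%), with the promoter peak at -0.59 (SE 0.08, adjusted p = 1.95e-07), and the 3 intragenic calls were lost with the groups fitted alone. Across the 3 guides, the Ttad libraries lay wholly below the Tterm libraries at 3 of 5 peaks (2.16% of all peaks) and below the Ttran libraries at 1, the promoter peak (1.43%).

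The 4 aged states form a square of the 2 gates, so the difference across each gate can be averaged over the other. These are differences between sorted populations and not effects of the markers. Across the Slamf6 gates, aged OTC Tim-3+ libraries were higher than Tim-3- libraries at 4 of 5 peaks (20.2% of all peaks called), by 0.88 at the promoter peak (SE 0.06, adjusted p = 8.32e-23). Across the Tim-3 gates, Slamf6+ libraries were lower than Slamf6- libraries at 1 of 5, the promoter peak, by -0.33 (SE 0.06, adjusted p = 3.28e-05; 7.9% of all peaks). Over the 3 guides the counts were 4 of 5 (34.6%) for the Tim-3 gate and 3 of 5 (20.3%) for the Slamf6 gate. The first intragenic Slamf6-gate call (-0.13) was lost with edgeR (adjusted p = 0.0509), with quantile normalization (0.0741), with each guide counted as 1 replicate (0.221) and without any of 10 libraries (up to 0.0932). The 2 gates did not add up at the promoter peak. The Tim-3 difference was 1.21 among Slamf6+ cells (Ttran against Tprog) and 0.54 among Slamf6- cells (Tterm against Ttad, -0.54 as Ttad minus Tterm), an interaction of -0.66 (SE 0.12, adjusted p = 1.58e-04).

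That interaction was called at 1 of 5 peaks in OTC cells, where 2% of all peaks were called, and again at the promoter peak alone with Zfp219 (-0.51, SE 0.12, adjusted p = 0.0178; 0.498% of all peaks) and with Dusp5 (-0.53, SE 0.12, adjusted p = 0.0120; 0.698%). Leaving out any of 7 libraries ended the Zfp219 call and any of 4 ended the Dusp5 call, with interactions of -0.46 to -0.54 and adjusted p up to 0.118. The Zfp219 call was also lost under quantile normalization (-0.43, adjusted p = 0.0705) and the Dusp5 call with its 4 groups fitted alone (adjusted p = 0.158). Over the 3 guides the interaction was -0.57 (SE 0.07, adjusted p = 3.58e-09, 3.83% of all peaks called). With each guide counted as 1 replicate the adjusted p was 0.0195. That fit must return the same difference, since all aged groups had 2 libraries. It also takes 3 different guides as replicates of a state. The intragenic peaks gave -0.15, -0.19 and -0.09 over the 3 guides, each uncalled (adjusted p = 0.420, 0.192 and 0.741).

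Within the Tim-3+ gate, no Havcr2 peak was called between Tterm and Ttran in OTC cells. The count was 0 of 5 in aged OTC cells (3.22% of all peaks called) and 0 of 5 in young OTC cells (8.38%), by limma and by edgeR, and no peak had an unadjusted limma p under 0.05. At the promoter peak the difference was -0.00 in aged cells, with a 95% confidence interval of -0.17 to 0.16, and 0.09 in young cells, with an interval of -0.04 to 0.23. Over the 3 guides of aged hosts the count was also 0 of 5 (7.71% of all peaks), with an interval of -0.04 to 0.15 at the promoter peak. With the Zfp219 guide alone, which was not tested for this difference, the 2 aged Tterm libraries lay above the 2 Ttran libraries at the promoter peak (1228 and 1275 against 1104 and 1142). They did so at the first intragenic peak (717 and 755 against 567 and 663) and the second (837 and 949 against 744 and 785) as well. The share of all peaks that separated these libraries was not counted. Slamf6, the gene of the other sorting marker, did differ between the same Tim-3+ states: its strongest peak (chromosome 1, 171915612 to 171916427) averaged 544 normalized reads in Ttran and 342 in Tterm of aged OTC cells (log2 difference of Tterm minus Ttran -0.66, SE 0.15, adjusted p = 0.00457). Of its 6 peaks, 3 were called there. Across the Slamf6 gate of Tim-3- cells the strongest peak was not called, at 492 in Ttad and 545 in Tprog (-0.15, SE 0.15, adjusted p = 0.670). In that comparison 2 of 6 Slamf6 peaks and 6.55% of all peaks were called.

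The promoter peak gained relative to the rest of the gene outside Tprog. A ratio was taken in each library between the promoter peak and the mean of the 3 intragenic peaks on the log2 scale, where peak widths cancel between libraries. In aged hosts it was 0.14 to 0.37 in the 6 Tprog libraries, 0.58 to 0.92 in the 6 Ttad libraries, 0.79 to 0.88 in Ttran and 0.73 to 0.95 in Tterm. The lowest Ttad library thus stood above the highest Tprog library, while Ttad overlapped both Tim-3+ states. In young hosts the ratio was 0.25 to 0.55 in Tprog, 0.58 to 0.86 in Ttran and 0.74 to 0.94 in Tterm. As a share of the reads of all 5 peaks, the promoter peak took 26.2% to 28.9% in aged Tprog, 32.3% to 36.4% in Ttad and 34.5% to 38.1% in Tterm. These ratios were described and not tested.

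**Figure D3:**
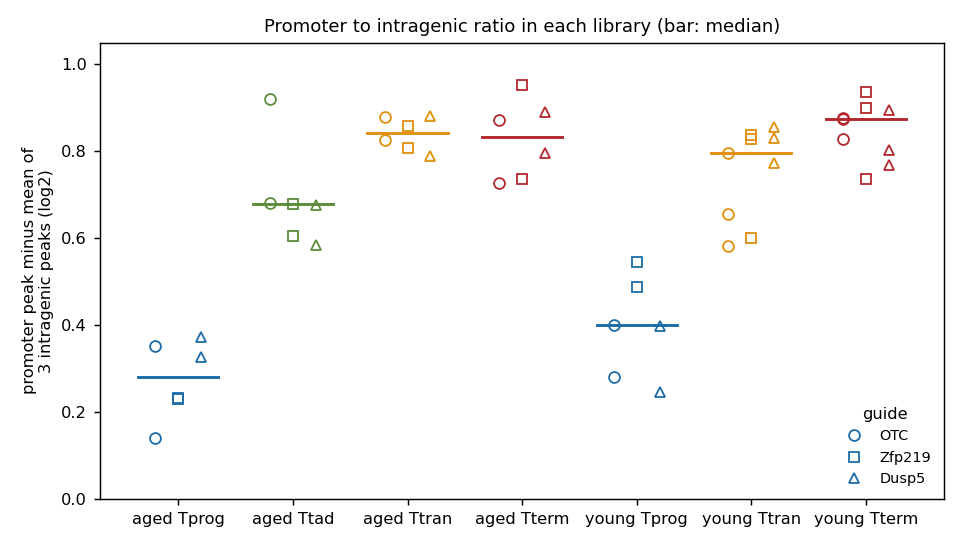
Log2 ratio of the promoter peak to the mean of the 3 intragenic peaks (vertical axis) in each library by host age and state, with the median as a bar and the guide as the symbol. The aged Tprog libraries reach at most 0.37 and the aged Ttad libraries start at 0.58.

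Over the 21 group means, the promoter peak correlated with the first, the second and the third intragenic peaks at Pearson r = 0.93, 0.93 and 0.88, and with the downstream peak at 0.48. These groups share libraries and normalization between peaks, so the values are descriptive. Ordered by their mean at the promoter peak, the 6 Tprog groups came lowest, with the 3 aged ones (554 to 584) below the 3 young ones (672 to 676) and no overlap at that step. The 3 Ttad groups followed at 816 to 928, again without overlap with the young Tprog group below them. The 12 Ttran and Tterm groups of both ages held 1123 to 1315, and each overlapped the group below it except the lowest 2, aged Zfp219 Ttran and young Zfp219 Tterm.

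Host age was compared within control cells, averaging Tprog, Ttran and Tterm. The third intragenic peak was lower in aged hosts by a log2 difference of -0.29 (SE 0.07, limma adjusted p = 5.35e-04), with group means of 364, 494 and 543 in aged against 440, 649 and 614 in young Tprog, Ttran and Tterm. It was the 1 of 5 peaks called, where 36.5% of all peaks were called, so the count was close to the background. The promoter peak gave -0.09 (95% interval -0.18 to 0.00, adjusted p = 0.122), and under quantile normalization it was called at -0.13 (adjusted p = 0.0156). The S numbers in the headers of the aged libraries recur among the young ones, and what they stand for is not stated. Whether each age was processed as a batch is not stated either, so host age and such a batch cannot be told apart.

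Within single states, 1 of 5 peaks was called in Tprog (15.4% of all peaks), 1 of 5 in Ttran (18.3%) and 0 of 5 in Tterm (18.9%; 0 with an unadjusted p under 0.05 and 0 by edgeR). In Tprog the promoter peak held 523 and 585 in aged against 656 and 688 in young OTC libraries (log2 difference -0.28, SE 0.08, adjusted p = 0.0125). These libraries did not overlap, but the share of all peaks that separated them was not counted. The promoter call was lost with these 2 groups fitted alone (adjusted p = 0.0555), without aged Tprog replicate 2 (-0.20) and without young Tprog replicate 2 (-0.24). In Ttran the third intragenic peak held 456 and 532 against 583, 671 and 693 (-0.39, SE 0.12, adjusted p = 0.0109), and its call was lost without aged Ttran replicate 1 (adjusted p = 0.216) or young Ttran replicate 1 (0.0575). The gain of the promoter peak from Tprog to Tterm was 1.21 in aged and 0.97 in young cells. That difference of 0.24 (SE 0.11) was not called (adjusted p = 0.323), nor was any other of the 5 (2.32% of all peaks; 2 had an unadjusted p under 0.05, and edgeR called 0).

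The Zfp219 and Dusp5 guides were each compared with the same OTC libraries, so the 2 comparisons are not independent. At the promoter peak the 7 pairs of age and state gave log2 differences of -0.19 to 0.08 for Zfp219 and -0.11 to 0.03 for Dusp5, with 0 of 7 called for either guide. For Zfp219 2 of those 7 had an unadjusted limma p under 0.05 and for Dusp5 0 did. Averaged over states, the promoter difference was -0.02 in aged (95% interval -0.10 to 0.07) and -0.06 in young hosts (-0.14 to 0.02) for Zfp219, and -0.05 (-0.13 to 0.03) and -0.01 (-0.09 to 0.07) for Dusp5. Quantile normalization turned the sign of all 4 averages, none of them called in either fit.

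Averaged over states, Zfp219 called 0 of 5 peaks in aged hosts (25.8% of all peaks; 0 with an unadjusted p under 0.05, 0 by edgeR) and 1 of 5 in young hosts (7.07%), the first intragenic peak at -0.18 (SE 0.05, adjusted p = 0.0285). Dusp5 called 1 of 5 in aged hosts (12.2%), the second intragenic peak at -0.15 (SE 0.05, adjusted p = 0.0336), and 0 of 5 in young hosts (3.82%; 0 unadjusted, 0 by edgeR). The Zfp219 call was lost with quantile normalization (-0.13, adjusted p = 0.146) and without any of 6 libraries. The Dusp5 call was lost under quantile normalization (-0.08, adjusted p = 0.368), with the groups fitted alone, with library weights and without any of 8 libraries. Neither guide's effect differed between ages at any Havcr2 peak (0 of 5 each, with 9.11% of all peaks for Zfp219 and 4% for Dusp5; 1 peak each had an unadjusted p under 0.05 and edgeR called 0).

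**Figure D4:**
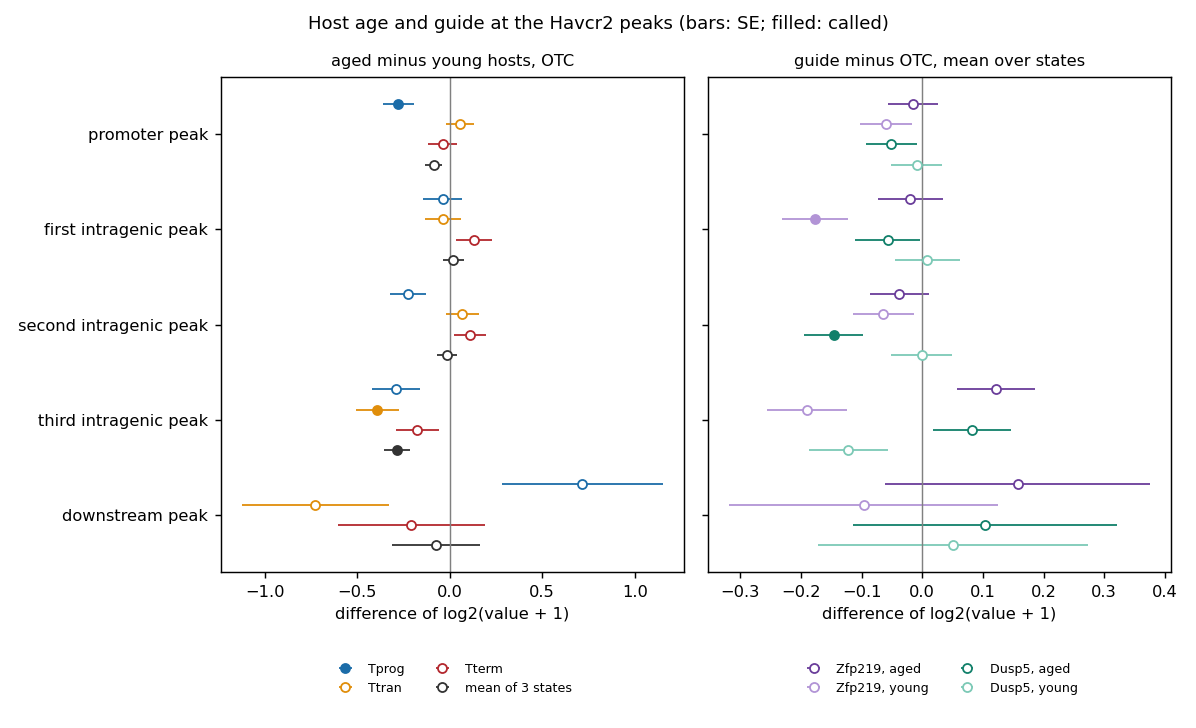
Log2 differences on the log2(value + 1) scale between aged and young OTC cells by state (left) and between each guide and OTC averaged over states (right), with bars of 1 standard error and filled points where the limma adjusted p was under 0.05. The third intragenic peak lies at -0.29 for the mean over 3 states, and the promoter peak stays between -0.06 and -0.01 for the guides.

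Within single states, 2 of 35 Zfp219 tests and 0 of 35 Dusp5 tests at Havcr2 passed, with 10 and 2 having an unadjusted p under 0.05. Over these pairs 5.1% of all tests were called for Zfp219 and 1.9% for Dusp5. By pair, Zfp219 called 2.56% of all peaks in aged Tprog, 3.57% in aged Tterm, 0.997% in young Tprog, 5.88% in young Ttran and 0.275% in young Tterm, with 0 Havcr2 peaks in each by limma and by edgeR. Dusp5 called 0.83% in aged Tprog, 3.8% in aged Ttran, 4.11% in aged Tterm and 2.88% in aged Ttad, and 0.782%, 0.646% and 0.273% in young Tprog, Ttran and Tterm, again with 0 Havcr2 peaks by either tool. In aged Ttran the second intragenic peak held 744 and 785 with Zfp219 against 985 and 1014 with OTC (log2 difference -0.39, SE 0.10, adjusted p = 0.00280, 14.2% of all peaks called). These libraries did not overlap, but the share of all peaks that separated them was not counted. Without Zfp219 Ttran replicate 1 the difference was -0.35 and no longer called. In aged Ttad the third intragenic peak held 423 and 476 with Zfp219 against 307 and 362 with OTC (0.43, SE 0.13, adjusted p = 0.0231; 8.23% of all peaks). That call was lost under quantile normalization (adjusted p = 0.0586), with the groups fitted alone (0.0563), without OTC Ttad replicate 2 (0.31, adjusted p = 0.261) and without Zfp219 Ttad replicate 2 (0.34, adjusted p = 0.252).

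The Tim-3 gate difference at the second intragenic peak was smaller with Zfp219 than with OTC. In aged OTC cells the 4 Tim-3+ libraries held 975 to 1014 and the 4 Tim-3- libraries 554 to 764. With Zfp219 they held 744 to 949 and 661 to 828, so the gates overlapped. The interaction of guide and gate was -0.46 (SE 0.10, adjusted p = 0.00397), at 1 of 5 peaks where 0.893% of all peaks were called. Under quantile normalization it was -0.38 and not called (adjusted p = 0.0677). With Dusp5 the corresponding count was 0 of 5 (0.169% of all peaks; 0 with an unadjusted p under 0.05, 0 by edgeR).

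The genes known to act with Tim-3 were read from lists chosen with earlier results of these data known. The 3 partner genes had 11 peaks, of which 1 was called higher and 0 lower in aged OTC Tterm than in Tprog, and 2 higher and 2 lower in young cells. That was 9.09% and 36.4% of the list, where 20.1% and 26.5% of all peaks were called. Over the 11 peaks the median log2 difference was -1e-04 in aged and -0.38 in young cells. The 2 peaks that were lower in young cells are not described singly. Ceacam1, a cell-adhesion receptor that pairs with Tim-3, had a single weak peak. It averaged 14.8 in aged OTC Tprog and 31.0 in Tterm (log2 difference 1.49, SE 0.57, adjusted p = 0.0519), and 6.43 and 46.4 in young cells (2.72, SE 0.52, adjusted p = 1.86e-05). The strongest peak of Hmgb1, a chromatin protein that is also a Tim-3 ligand, was higher in Tterm in both hosts, by 0.22 in aged (SE 0.08, adjusted p = 0.0426) and 0.32 in young cells (SE 0.07, adjusted p = 5.24e-04). The strongest peak of Lgals9 averaged 230 in aged Tprog and 220 in Tterm (-0.04, SE 0.18, adjusted p = 0.922).

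The 10 regulators of inhibitory receptors (Tbx21, Nfil3, Prdm1, Maf, Il27ra, Stat3, Batf, Nfatc1, Tox and Irf4) had 135 peaks. Of these, 31 were higher and 13 lower in aged OTC Tterm than in Tprog (32.6% of the list, beside 20.1% of all peaks; median 0.09), and 26 higher and 15 lower in young cells (30.4%, beside 26.5%). Prdm1, which encodes the repressor Blimp-1, had 13 of 22 peaks higher and 0 lower in aged cells and 11 higher and 0 lower in young cells. Its strongest peak (chromosome 10, 44400135 to 44401483) rose from a mean of 477 in Tprog to 757 in Ttad and 944 in Tterm of aged OTC hosts, and was called in Ttad against Tprog as well (0.65, SE 0.10, adjusted p = 3.16e-06). Tbx21, the gene of T-bet, had 4 of 9 peaks higher in aged Tterm, with its strongest at 1058 in Tprog and 1277 in Tterm (0.27, SE 0.09, adjusted p = 0.0201). Tox, a factor required for exhausted cells, had 1 of 27 higher and 6 lower. Between Ttad and Tprog, 12 of the 135 peaks were higher and 4 lower, 11.9% of the list beside 6.55% of all peaks.

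Of the other Tim family genes, which lie near Havcr2 on chromosome 11, only Timd2 had peaks, and Havcr1 and Timd4 had none. Timd2 had 4 peaks, of which 1 was higher and 1 lower in aged OTC Tterm than in Tprog and 0 were called in young cells, where 20.1% and 26.5% of all peaks were called. Its strongest (46659732 to 46660950) averaged 32.8 in aged Tprog, 38.5 in Ttad and 73.2 in Tterm (Tterm against Tprog 1.13, SE 0.30, adjusted p = 0.00342).

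Within 500 kb of the Havcr2 gene body there were 64 other peaks. Between Tterm and Tprog 13 were higher and 5 lower in aged OTC cells, with log2 differences from -1.49 to 1.72 and a median of 0.05, and 2 exceeded the Havcr2 promoter peak. In young OTC cells 11 were higher and 2 lower, and 6 exceeded the promoter peak. Between Ttad and Tprog 3 were higher and 2 lower, and 2 exceeded it. Over all peaks, 20.1%, 26.5% and 6.55% were called in these comparisons.

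**Figure D5:**
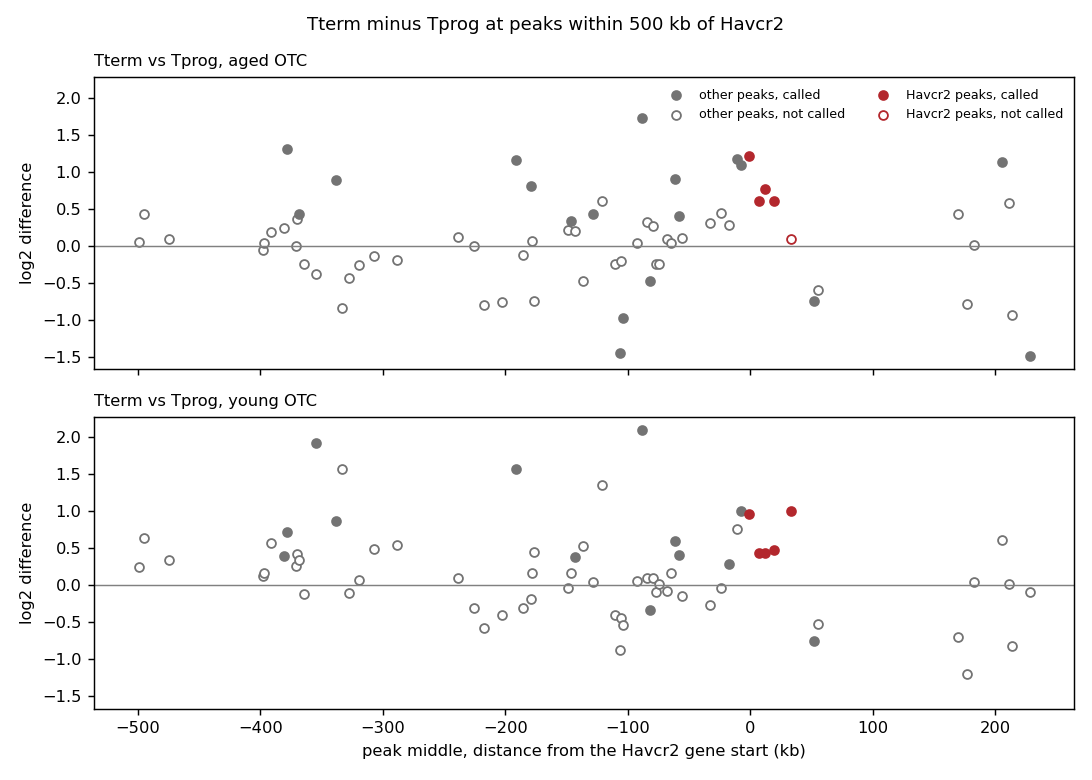
Log2 difference between Tterm and Tprog (vertical axis) at every peak within 500 kb, plotted by the distance of its middle from the Havcr2 gene start (horizontal axis, kb), in aged (top) and young (bottom) OTC cells; filled points were called and red points are Havcr2 peaks. The Havcr2 promoter peak stands at 1.21 in aged and 0.97 in young cells, among neighbours that spread on both sides of 0.

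The peaks most like the Havcr2 promoter peak over the 21 group means were found among 32420 peaks on other chromosomes with a mean of at least 50 normalized reads. Of these, 461 had a Pearson r of at least 0.9 and 88 of at least 0.95. The closest was a strong peak on chromosome 2 (128427974 to 128431306) with no protein-coding gene within 100 kb, at r = 0.982. The next 4 overlapped Plcl1 (r = 0.981), St3gal6 (r = 0.977), Gipc2 (r = 0.976) and Zcwpw2 (r = 0.976). Over the 3 guides of aged hosts, the St3gal6 peak (chromosome 16, 58479840 to 58481211) averaged 159 in Tprog, 351 in Ttad, 703 in Ttran and 812 in Tterm. The Gipc2 peak (chromosome 3, 152122079 to 152123109) averaged 39.1, 103, 216 and 276 in the same order. In both, Ttad lay between Tprog and the Tim-3+ states, as it did at Havcr2; these peaks were picked for that likeness.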

How the data were processed

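ATAC-seq signal was read for 48 libraries from the table the authors deposited, which is named as normalized counts and whose headers give libraries but no unit. In every library 100% of values were whole multiples of one step (tolerance 0.001), so the signal is reads divided by a library factor. The submitters' processing notes name mm10, Bowtie2 2.2.9, Picard 2.8.0, MACS2 2.1.1, SAMtools 1.3.1 and DESeq2 1.28.1, with no role or order given. How duplicates and insertion shifts were treated is not given in the sources used here.

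Groups and replicate numbers came from sample titles, with A and Y read as aged and young hosts. Peaks were assigned with the RefSeq GRCm38.p6 gene table, and of all peaks 51109 had a gene. limma 3.58.1 (R 4.3.3) fitted a mean per group to log2(value + 1) over 53868 peaks and 48 libraries, with a trend and Benjamini-Hochberg adjustment, so fold changes of weak peaks are understated. Peaks were called at an adjusted p under 0.05. edgeR 4.0.16 (quasi-likelihood, TMM) on recovered reads called 11511 peaks between aged OTC Tterm and Tprog, against 10806 by limma, with 10565 shared. On simulated data for that comparison (53868 peaks, 200 changed by a fold of 2), limma called 77% of the changed peaks and made 6 false calls. The changed peaks were drawn from those with a mean of at least 50 normalized reads, above that of the downstream peak. Their variance was set in proportion to the mean and not taken from these libraries, so the 77% need not hold for them.

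All 5 Havcr2 peaks are described, with full values for the strongest and for those called between states, ages or guides; look-alike peaks were the 5 best correlated on other chromosomes. Some marker genes, and the list of receptor-proximal genes, are not reported here. Members, lists and comparisons were chosen with earlier results of these data known. The gate interactions of the Zfp219 and Dusp5 guides and of the 3 guides together, and the state comparisons with the other guides, were added after the data were seen. The fits were repeated with a pseudocount of 8, without the weakest 25% of peaks, and with quantile normalization, compared groups alone, library weights, a replicate block, edgeR, each library left out, or a single value per group.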

Additional observations from a re-analysis of the deposited data

Results flagged for a closer look

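Some results stood out because an effect differed between 2 sets of samples by a direct test of that difference. The Tim-3 gate difference at the Havcr2 promoter peak was smaller in Slamf6- than in Slamf6+ aged cells, by -0.66 with OTC (limma adjusted p = 1.58e-04), -0.51 with Zfp219 (adjusted p = 0.0178), -0.53 with Dusp5 (adjusted p = 0.0120) and -0.57 over the 3 guides (adjusted p = 3.58e-09). The sign was the same in each of the 3 guides. The Tim-3 gate difference at the second intragenic peak was smaller with the Zfp219 guide than with OTC in aged hosts, by -0.46 (adjusted p = 0.00397). Groups of 2 or 3 libraries are too small for a test of single outlying libraries, so none was made.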

How the results depend on the processing

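Of 83 called differences at single Havcr2 peaks, 1264 recomputations kept the call in 1155 cases, lost it in 109 and reversed it in 0. The alternatives for the comparisons added later were chosen after seeing the data. The number of called peaks between aged OTC Ttad and Tprog (2) was 1 under quantile normalization, with the groups alone, with library weights and with edgeR, and 1 to 2 with a library left out. For the gate interactions of the Zfp219 and Dusp5 guides (2) it was 1 under quantile normalization and with the groups alone, and 1 to 2 with a library left out. For Ttad against Tterm with these guides (5) it was 3 with the groups alone and with weights, and 2 to 5. For age over 3 states (1) it was 2 under quantile normalization, and for age within states (2) it was 1 with the groups alone and 1 to 2. For Zfp219 in young hosts (1) it was 2 without the weakest peaks, with the groups alone and with edgeR, 0 under quantile normalization and 0 to 2. For Zfp219 within states (2) it was 1 under quantile normalization and with the groups alone, and 1 to 2; for Zfp219 by Tim-3 gate (1) it was 0 under quantile normalization. For Dusp5 in aged hosts (1) it was 0 under quantile normalization, with the groups alone, with weights and 0 to 1. With a library left out, Zfp219 in aged hosts (0) gave 0 to 1, the Zfp219 difference between ages (0) 0 to 1, Ttad against Ttran (4) 2 to 4 and young Tterm against Tprog (5) 3 to 4.

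At the promoter peak, signs turned among uncalled differences and for 0 called ones. Under quantile normalization Tterm against Ttran in aged OTC cells was 0.0161, aged against young Ttran -0.016, Zfp219 against OTC 0.0338 in aged and 0.0021 in young hosts, and Dusp5 0.0337 and 0.0347. With a library left out these ran from -0.079 to 0.0781 for Tterm against Ttran, -0.1183 to 0.0388 for aged against young Tterm, -0.0379 to 0.0067 for Zfp219 in aged and -0.0274 to 0.0093 for Dusp5 in young hosts. The cause was not tested.

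A replicate block on the numbers in the titles changed 1 call at Havcr2, the young OTC downstream peak between Tterm and Tprog (0.997, adjusted p = 0.0611). Same-numbered libraries did not deviate together over all peaks (median r = -0.000456 in aged and -0.00235 in young hosts), and 10 of 24 aged and 4 of 24 young libraries correlated best with their own number. Whether same-numbered libraries shared mice is not recorded in the labels, and correlations this near 0 cannot decide it. Depth limits the downstream peak, at 9 to 102 reads per library.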

Other observations

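The nearest peak before the gene (46446179 to 46448809, 6122 bp upstream of Havcr2 and given to Med7, a subunit of the Mediator complex, as the nearest gene body) also differed between the sorted states. In aged OTC cells it held 334 and 357 normalized reads in Tprog, 423 and 454 in Ttad, 551 and 595 in Ttran and 715 and 756 in Tterm. None of these pairs of libraries overlapped, but the share of all peaks that separated them was not counted. With the other guides Ttran and Tterm were not always apart: aged Dusp5 Ttran held 621 and 662 against 656 and 690 in Tterm, and young Zfp219 averaged 870 in Ttran and 871 in Tterm. In OTC cells it was higher in Tterm than in Ttran by a log2 difference of 0.36 in aged (SE 0.11, limma adjusted p = 0.0363) and 0.27 in young hosts (SE 0.09, adjusted p = 0.0357). Of all peaks, 3.22% and 8.38% were called there. This upstream peak was lower in aged than in young OTC cells over 3 states by -0.45 (SE 0.06, adjusted p = 3.68e-10), where 36.5% of all peaks were called. Its means were 345, 573 and 735 against 481, 798 and 960 in Tprog, Ttran and Tterm. Its gate interaction in aged OTC cells was 0.02 (SE 0.15, limma adjusted p = 0.979). With Zfp219 it was -0.43 (SE 0.15, adjusted p = 0.199) and with Dusp5 -0.22 (SE 0.15, adjusted p = 0.590). Over the 3 guides it was -0.21 (SE 0.09, adjusted p = 0.168), and none of these was called.

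With the Zfp219 guide this upstream peak was higher than with OTC over 4 aged states by 0.23 (SE 0.05, limma adjusted p = 3.15e-04), where 25.8% of all peaks were called. The largest difference was in Ttad, at 571 and 616 against 423 and 454 (0.44, SE 0.11, adjusted p = 0.00338, 8.23% of all peaks). In young hosts the difference over 3 states was 0.01 (SE 0.05, adjusted p = 0.941). Over the 3 states present at both ages, without Ttad, the guide's effect differed between ages by 0.16, which was not called (SE 0.08, adjusted p = 0.238). With Dusp5 it was 0.05 in aged hosts (SE 0.05, adjusted p = 0.611). Its difference in pattern from the promoter peak was not tested. Which gene this peak bears on was not measured, and it was described after its values were seen.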
